A study of Arabidopsis thaliana with 9 samples.

Results

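Transcript signals of 5 Arabidopsis thaliana genes, AT3G18330, AT1G65760, AT5G66970, AT1G03710 and AT4G05470, were examined in whole seedlings of the ebs and shl-2 mutants and of wild type. The genes were picked because their signal lay near the bottom of the scale in shl-2 and wild type and was raised in ebs, so their levels and differences are given below as a description and without a test. They are 5 of 13355 genes with a probe set annotated to a single gene, and each is represented by 1 probe set. The tables used here give each of the 5 a locus identifier and no product name, so no role is stated for them.

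The study compared 3 genotypes in the accession Landsberg erecta (Ler), with 3 independent biological pools of plants each: ebs mutants, shl-2 mutants and wild type. The labels describe the mutants as lacking expression of EBS or of SHL, and some of the labels for the shl-2 samples spell the allele shl-2-2. Plants of every genotype were 18 days old, had grown on plates under short days (8 h light, then 16 h dark), and received no further treatment. RNA came from complete plants, and each pool was hybridized to its own Affymetrix array.

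EBS and SHL encode related plant chromatin proteins, each with a BAH domain and a PHD finger, which read methyl marks on histone tails. They are known as repressors of flowering, and they bind both a mark of active genes and the repressive mark laid down by Polycomb complexes. Polycomb marking is a common way in which plants keep genes off in tissues or at stages where their products are not used.

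The 9 arrays each carried 22746 probe sets other than controls, with median log2 signals between 6.06 and 6.12. Correlations between arrays across probe sets were at least 0.988. SHL, annotated as SHL1, read 8.08, 7.82 and 7.81 in ebs, 7.46, 6.91 and 6.52 in shl-2 and 7.88, 8.02 and 7.88 in wild type, and was lowest on the 3 shl-2 arrays. Its shl-2 mean of 6.96 ± 0.47 (SD, n = 3) had a log2 difference of -0.96 from wild type and was still above the median signal of an array, which does not match a lack of transcript. The position of the probes in the gene was not examined. The samples are therefore called shl-2 by their label. No probe set was named for EBS, which was not analysed here. Of the tissue markers, the leaf photosynthesis genes LHCB4.1 and PSAN read 13.54 to 13.98 on the 9 arrays. The root hair expansin gene EXPA7 read 4.16 to 4.76 and the shoot meristem peptide gene CLV3 3.12 to 3.52, and none of these 4 genes was called in any comparison. They were 2 of 6 leaf, 1 of 5 root and 1 of 3 shoot meristem markers listed. Of all probe sets 3.19% were called in ebs against wild type, 0.769% in ebs against shl-2 and 5.43% in shl-2 against wild type. Nothing is therefore read from 4 genes without a call, and CLV3 lay under the lower quartile of means in each genotype. Of 29 flower, pollen and seed markers 0 had a named probe set, so the part of such tissue in the values below was not tested. In RNA from whole seedlings, more cells that express a gene and more of its RNA per cell cannot be told apart.

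Signals are log2 values, so a difference of 1 is a doubling. AT3G18330 read 5.98, 5.79 and 5.94 on the 3 ebs arrays. In shl-2 the same probe set read 3.54, 2.95 and 2.90, and in wild type 3.19, 2.74 and 2.95. The 3 ebs arrays stood close together and far above the other 6, of which shl-2 array 1 was the highest. The ebs mean of 5.90 ± 0.10 (SD, n = 3) lay 2.77 above the shl-2 mean of 3.13 ± 0.36 and 2.94 above the wild type mean of 2.96 ± 0.23. On the linear scale ebs was 7.69-fold above wild type. Its probe set is of the s_at type, which can detect several similar transcripts, whereas the probe sets of the other 4 genes are of the plain type.

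AT1G65760 read 5.71, 5.98 and 5.50 in ebs, against 3.28, 3.24 and 3.45 in shl-2 and 3.55, 3.42 and 3.76 in wild type. Here ebs array 2 was the highest, and the lowest ebs array still exceeded the highest of the other 6 arrays by 1.74. The mean in ebs, 5.73 ± 0.24 (SD, n = 3), was 2.41 above that in shl-2, 3.32 ± 0.11, and 2.15 above that in wild type, 3.58 ± 0.17. Among the 5 genes it had the largest distance between shl-2 and wild type, -0.25, with overlapping arrays.

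AT5G66970 read 5.51, 5.42 and 5.33 in ebs, 3.50, 3.51 and 3.56 in shl-2 and 3.36, 3.47 and 3.85 in wild type. The ebs arrays lay close together around their mean of 5.42 (SD 0.09), and the wild type arrays were more scattered around 3.56 (SD 0.26). Its ebs mean was 1.90 above shl-2 and 1.86 above wild type, a 3.63-fold difference from wild type.

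AT1G03710 read 5.02, 5.39 and 5.16 in ebs, 3.70, 3.26 and 3.68 in shl-2 and 3.37, 3.58 and 3.70 in wild type. Its shl-2 and wild type means were both 3.55, with SDs of 0.25 and 0.17, and its ebs mean of 5.19 ± 0.19 (SD, n = 3) was 1.64 above each of them. No ebs array overlapped with another genotype, and ebs array 2 was again the highest.

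AT4G05470 showed the smallest difference of the 5. It read 4.79, 4.72 and 4.46 in ebs, 3.71, 3.57 and 3.64 in shl-2 and 3.69, 3.71 and 3.29 in wild type. The ebs mean of 4.66 ± 0.17 (SD, n = 3) was 1.02 above the shl-2 mean of 3.64 ± 0.07 and 1.09 above the wild type mean of 3.56 ± 0.24. The gap between the lowest ebs array and the highest other array was 0.75, against 1.32 to 2.25 for the other 4 genes.

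**Figure D1:**
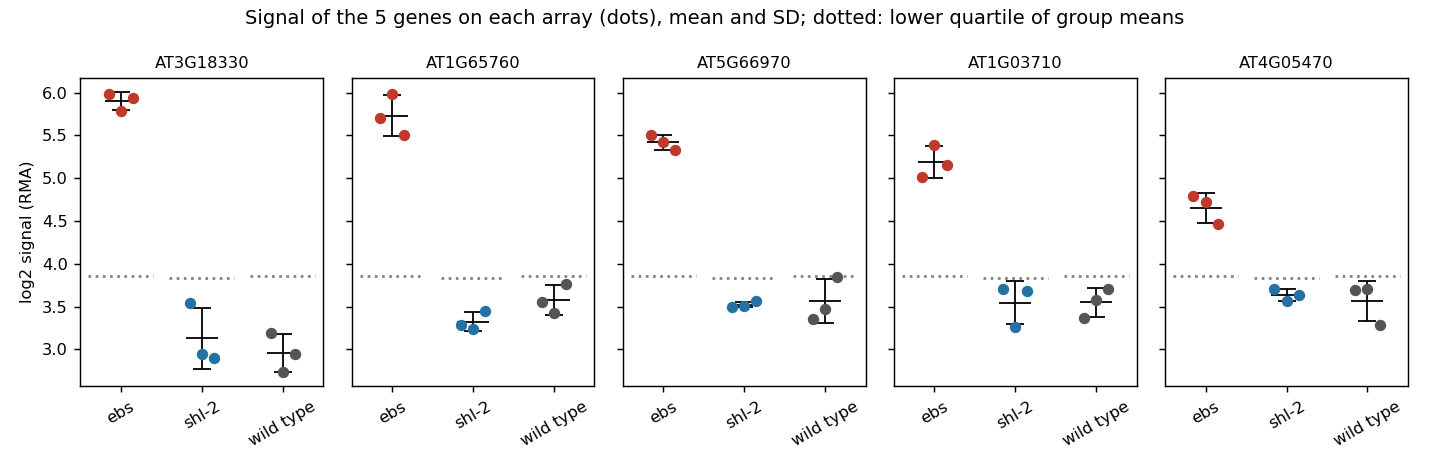
Log2 signal (vertical axis) of the 5 genes on each array (dots), by genotype (ebs, shl-2, wild type), with the mean and SD as black bars (n = 3) and the lower quartile of each genotype's means as dotted lines. The ebs arrays lie between 4.46 and 5.98, and the shl-2 and wild type arrays between 2.74 and 3.85.

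For 5 of the 5 genes the ebs arrays lay above the wild type arrays without overlap, which holds for 7.34% of all probe sets, and above the shl-2 arrays without overlap, which holds for 7.13%. The genes were chosen on these contrasts, so the counts add nothing to the choice. In shl-2 against wild type, differences of the 5 genes ran from -0.25 to 0.17, and the arrays overlapped for each gene. Over all probe sets 20.5% had no overlap there, but genes dim in both genotypes were chosen, so nothing is read from this. The ebs comparisons with shl-2 and with wild type use the same ebs arrays and are not independent of each other. The median difference of the 5 was 1.86 in ebs against wild type, where the median of all probe sets was -0.02, and 1.90 in ebs against shl-2, where it was 0.00.

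How dim the genes were can be read from their place among all probe sets of the same array, although probe sets differ in how strongly they bind, so that this place is no measure of transcript number. In ebs the 5 genes lay between percentiles 33 and 49 of the signals of an array, in shl-2 between 3.23 and 22.5, and in wild type between 1.22 and 23.6. None of the 5 thus reached the median signal of an array, even in ebs. Detection calls were not used here, so whether a signal of about 3.5 in shl-2 or wild type stands for some transcript or for background is not known, and the sizes of the differences depend on that background. When every value under an array's lower quartile was raised to that quartile, the differences ran from 0.79 to 2.03 in ebs against wild type and from 0.82 to 2.07 in ebs against shl-2. AT1G65760 was the 1 gene of the 5 that a filter removing the dimmest 30% of probe sets would have kept.

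To place the 5 genes among other dim transcripts, a probe set was counted as near-silent in a genotype when its mean lay in the lowest 25% of that genotype's means, which is under 3.83 in shl-2 and under 3.86 in wild type. Of 5462 probe sets that were near-silent in both shl-2 and wild type, 5 had an ebs mean at least 1 log2 unit above both, and these were the 5 genes described here. The same count with the genotypes exchanged was 2 of 5455 for probe sets raised in shl-2 alone, the higher being AT3G27473 with a difference of 1.42, and 1 of 5478 for probe sets raised in wild type alone. At least 1 log2 unit higher in both mutants than in wild type were 0 of 5680 probe sets that were near-silent in wild type. These counts are small, and the differences between them were not tested. The 5 genes were chosen for this pattern on the same arrays. The count for ebs therefore adds nothing to the choice, and nothing is read from its distance to the other counts. At a lower limit of 0.5 log2 units the counts were 19 for ebs alone, the 5 genes included, 5 for shl-2 alone, 4 for wild type alone and 2 for both mutants. These counts rest on means, and some of the 19 were uneven. The unnamed probe set 253503_at read 3.17, 2.91 and 5.36 in ebs, and AT1G14550 read 4.66, 3.35 and 4.97. The distances between the counts at this limit were not tested either, and nothing is read from them.

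**Figure D2:**
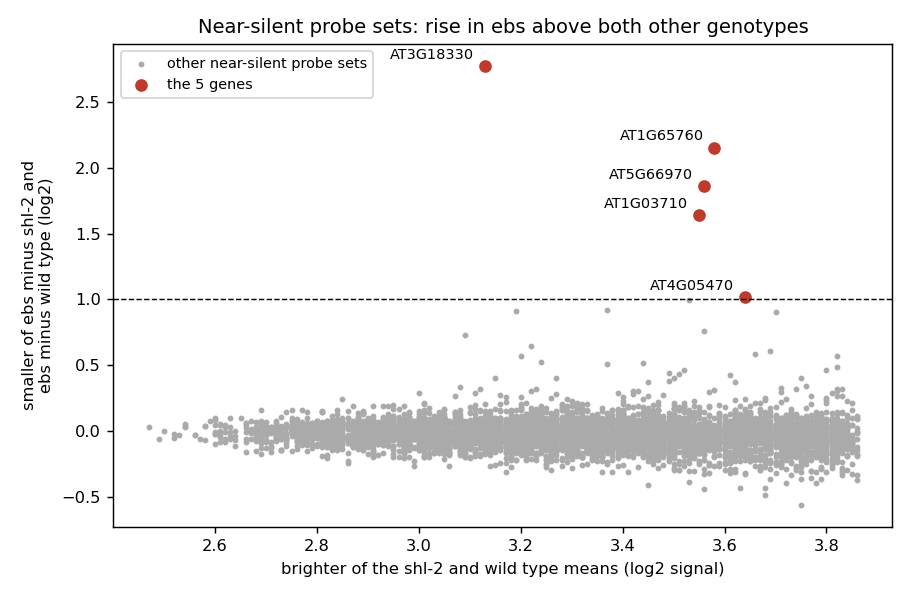
Each dot is 1 of the 5462 probe sets that were near-silent in shl-2 and wild type, placed by the brighter of those 2 means (horizontal axis, log2 signal) and by the smaller of the differences ebs minus shl-2 and ebs minus wild type (vertical axis, log2). The 5 genes (red) lie between 1.02 and 2.77 on the vertical axis, above the dashed line at 1, and the other probe sets (grey) lie below it.

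AT4G05470 stood just inside this limit, with a smaller difference of 1.017. Just outside it was the unnamed probe set 256830_at at 0.997, with 4.45, 4.56 and 4.58 in ebs, 3.70, 3.37 and 3.33 in shl-2 and 3.38, 3.39 and 3.83 in wild type. Next came AT4G14060 at 0.92, with 4.07, 4.57 and 4.22 in ebs, 3.33, 3.36 and 3.41 in shl-2 and 3.29, 3.25 and 3.55 in wild type, and AT1G11070 at 0.91. The ebs arrays of AT1G11070 were uneven, at 3.84, 4.77 and 3.69. AT1G65370 met the limit on the difference, at 1.61, but its shl-2 mean was 0.01 above the limit on dimness. AT4G24540 (AGL24), a floral promoter gene of the MADS-box class, was raised in ebs by 1.82 over shl-2 and missed the limit on dimness by 0.34.

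Over probe sets of any brightness, the lowest ebs array exceeded the highest of the other 6 arrays by at least 1 log2 unit for 15 of 22746 probe sets, or 0.0659%. AT3G18330 had the widest such gap of all, 2.25. AT1G65760, AT5G66970 and AT1G03710 ranked 5, 6 and 7, and AT4G05470 ranked 22. The 5 genes were chosen for a rise on these same arrays, so their ranks describe the choice and add nothing to it. An ebs mean at least 1 log2 unit above both other genotypes was found for 31 probe sets, of which 26 were not near-silent.

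Calls among dim probe sets in general were counted with a class that does not depend on the comparison. The class of 5683 probe sets was chosen by the shl-2 arrays, which are not part of ebs against wild type. In that comparison 27 of the class, or 0.475%, had a limma adjusted p under 0.05 (Benjamini-Hochberg over all probe sets), 20 higher and 7 lower in ebs. Among the other 17063 probe sets 699, or 4.1%, passed, and over all 22746 probe sets 3.19% passed, with 1.72% higher and 1.47% lower. The class contains the 5 genes, and 15 of its 20 higher calls were other probe sets. Its median log2 difference was -0.01, against -0.02 for all probe sets. The 5 calls of the class that were higher by at least 2-fold were the 5 genes themselves, which were chosen for that rise. The class lay under 3.83 in shl-2, where the lowest values of the arrays were 2.29 to 2.43. Probe sets so near the bottom of the scale have more room to rise than to fall. Nothing is therefore read from the share called in the class or from its split of 20 and 7.

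The genes that lie beside the 5 on the chromosome played no part in the choice and were tested. AT1G65760 and AT1G03710 lie on chromosome 1, AT3G18330 on chromosome 3, AT4G05470 on chromosome 4 and AT5G66970 on chromosome 5. For AT3G18330, whose probe set can detect several similar transcripts, the place rests on the annotation, and the origin of the signal was not tested. The 5 nearest measured genes on each side gave 50 neighbours, by the gene order of the TAIR10.1 annotation. In ebs against wild type 2 of the 50, or 4%, passed limma's test over all probe sets, both higher in ebs, against 3.19% of all probe sets. In ebs against shl-2 the same 2 passed, against 0.769% of all probe sets, and in shl-2 against wild type 0 passed in limma, against 5.43% of all probe sets. At an unadjusted p under 0.05 in limma there were 10 of the 50 in ebs against wild type, 5 in ebs against shl-2 and 4 in shl-2 against wild type, where the shares of all probe sets were 16.9%, 10.7% and 18.7%. The median differences of the 50 were 0.02 in ebs against wild type and 0.00 in ebs against shl-2.

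Neither of the 2 was next to a member. AT1G03820, the fifth measured gene after AT1G03710 and 11 annotated genes away, read 7.08, 7.39 and 6.65 in ebs, 5.84, 6.08 and 6.20 in shl-2 and 5.89, 6.20 and 6.04 in wild type. The ebs arrays were above the other 6, which overlapped with each other. The log2 difference was 1.00 from wild type (SE 0.17, limma adjusted p = 0.0146) and 1.00 from shl-2 (SE 0.17, limma adjusted p = 0.0302). The call against wild type was lost when wild type array 3 or ebs array 1 was omitted (limma adjusted p up to 0.0677). Against shl-2 the call was lost when wild type array 3, ebs array 1, ebs array 2, shl-2 array 1 or shl-2 array 2 was omitted (limma adjusted p up to 0.143). AT3G18280, the fourth measured gene before AT3G18330, read 7.77, 7.99 and 7.78 in ebs, 7.43, 7.30 and 7.11 in shl-2 and 7.34, 7.26 and 7.52 in wild type. Its differences of 0.47 from wild type (SE 0.11, limma adjusted p = 0.0458) and 0.57 from shl-2 (SE 0.11, limma adjusted p = 0.0484) lay close to the threshold. With 1 array left out, the call against wild type was lost in 7 of 9 fits, those that omitted any wild type array, any ebs array or shl-2 array 2, and the call against shl-2 in 9 of 9. With only the 2 compared genotypes in the fit, AT3G18280 passed in neither comparison (limma adjusted p = 0.0597 and 0.1), and AT1G03820 passed against wild type (0.0378) and not against shl-2 (limma adjusted p = 0.1).

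The 10 measured genes nearest to the 5, 1 on each side, were not all adjacent in the annotation. AT1G65810, for example, lies 5 annotated genes after AT1G65760. The 10 genes had differences from -0.25 to 0.28 in ebs against wild type, with a lowest limma adjusted p of 0.131. In ebs against shl-2 the differences ran from -0.20 to 0.29, with a lowest limma adjusted p of 0.221. Among the 10 genes was AT1G65740 (UCL1), the annotated gene directly before AT1G65760. UCL1 encodes an F-box protein that acts on the Polycomb protein CURLY LEAF. UCL1 read 2.95, 3.24 and 2.93 in ebs, 2.72, 2.72 and 2.98 in shl-2 and 2.79, 2.95 and 3.06 in wild type, and the arrays of the 3 genotypes overlapped. AT5G66960 and AT5G66980, the annotated genes on either side of AT5G66970, differed from wild type by -0.02 and 0.28 in ebs, and neither passed.

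**Figure D3:**
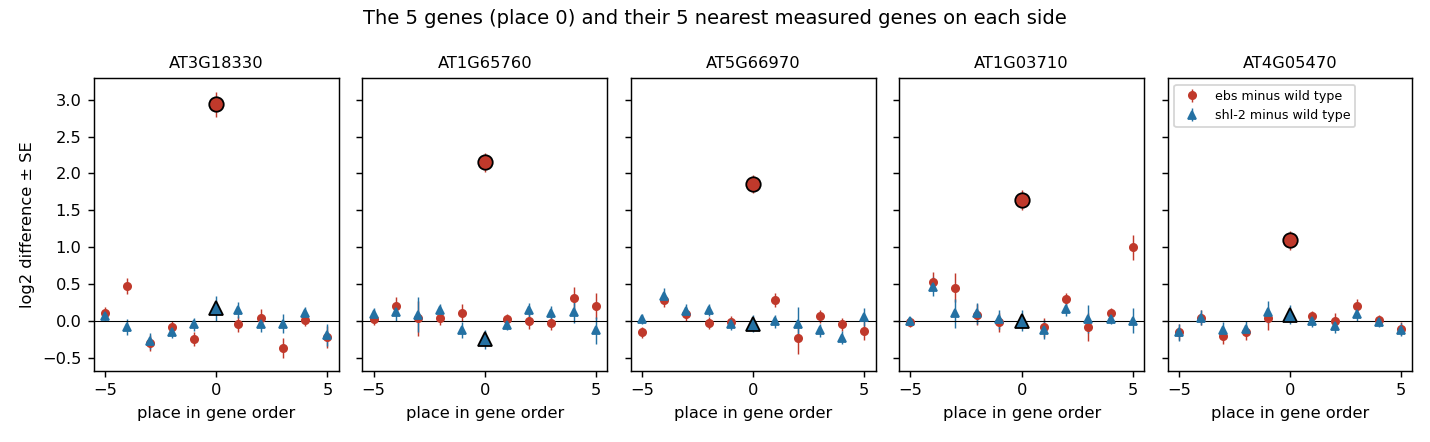
Log2 differences with limma's SE (vertical axis) of the 5 genes (large symbols, place 0) and of the 5 nearest measured genes on each side (horizontal axis, place in gene order), for ebs minus wild type (red circles) and shl-2 minus wild type (blue triangles). The neighbours lie between -0.37 and 1.00 in ebs and between -0.28 and 0.46 in shl-2.

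AT1G65370 is on the same chromosome as AT1G65760, 42 annotated genes before it, and was looked at after its values were seen. It read 5.21, 5.94 and 5.25 in ebs, 3.99, 3.62 and 3.92 in shl-2 and 3.86, 3.72 and 3.98 in wild type. As in AT1G65760, ebs array 2 was the highest. Of the 11 measured genes between them, 0 passed limma's test in ebs against wild type or in ebs against shl-2, with 2 and 0 at an unadjusted p under 0.05, where all probe sets gave 16.9% and 10.7%. Their differences in ebs against wild type ran from -0.29 to 0.60.

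The 5 genes varied together over the 9 arrays, which share the contrast that chose them. The Pearson correlation of each with the mean of the other 4, after centring, was 0.949 for AT4G05470 and 0.979 to 0.986 for the rest. Within ebs the genes did not share an order of the arrays, since array 1 was the highest for AT3G18330, AT5G66970 and AT4G05470 and array 2 for AT1G65760 and AT1G03710. Named genes with the most similar profile over the 9 arrays were AT5G56910 (r = 0.987), AT3G28500 (0.984), AT4G00390 (0.979), AT2G07140 (0.974) and AT1G65370 (0.974). These correlations describe profiles that share arrays and genotypes, and no p is given. Unlike the 5 genes, the first of them was well above the lower quartile in each genotype, with means of 7.94 ± 0.22 in ebs, 5.58 ± 0.13 in shl-2 and 5.43 ± 0.21 in wild type (SD, n = 3). AT3G28500 averaged 7.98 in ebs, 5.21 in shl-2 and 5.28 in wild type, and AT4G00390 averaged 5.43, 4.39 and 4.24 in ebs, shl-2 and wild type. The probe set of AT2G07140, of the x_at type that can detect unrelated transcripts, averaged 9.10 in ebs, 7.62 in shl-2 and 7.39 in wild type. Its number, 266426, is close to 266435 of AT3G18330, whereas the neighbours of AT3G18330 are numbered from 257064 to 257734. Whether the probe sets of AT2G07140 and AT3G18330 read a shared transcript was not tested, so their likeness may not be independent.

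**Figure D4:**
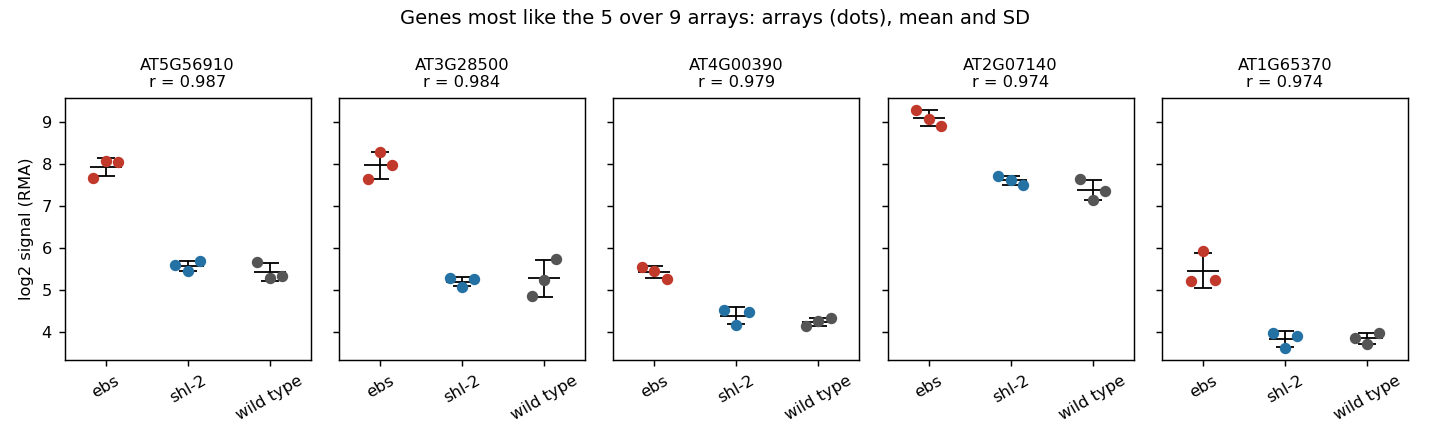
Log2 signal (vertical axis) of the 5 named genes whose profile over the 9 arrays was most like the mean of the 5 near-silent genes, by genotype (ebs, shl-2, wild type), with arrays as dots and the mean and SD as black bars (n = 3). Pearson r is given above each panel and runs from 0.974 to 0.987, and in each panel the ebs arrays lie above the other 6.

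Of the gene lists set beside the 5, few members had a named probe set. F-box proteins are a family of adaptor subunits of ubiquitin ligases. Of 31 genes whose annotation holds the word F-box, 1 was measured. This list is a word match and not the whole family: UCL1 was measured and is not on it. Nothing is therefore read for the family. The measured gene of the list, CEG, read 2.90, 2.90 and 2.70 in ebs. It read 2.90, 2.84 and 3.06 in shl-2 and 2.90, 2.90 and 2.91 in wild type, and it passed in no comparison. Like the 5 genes it lay under the lower quartile in wild type, and differed from wild type by -0.07 in ebs (limma adjusted p = 0.745). Of 5 listed genes for cystatins, inhibitors of cysteine proteases, 1 was measured. This gene, CYS1, read 9.22 to 9.44 in ebs, 9.42 to 9.58 in shl-2 and 9.03 to 9.35 in wild type, and did not pass. Of 3 listed genes for signal recognition particle subunits, which guide new proteins to membranes, 0 had a named probe set. The cystatin and signal recognition particle lists hold the genes found in the annotation used here and may not be complete. Their counts therefore do not tell how much of either family the array reads.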

How the data were processed

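Per the submitters' processing notes, the authors made the deposited log2 signals with RMA in the affy package, which corrects background, equalises the arrays and summarises probes. The package version is not given in the sources used here. Scanner files were not used here, so background and probe-level steps were not varied. Of 22810 probe sets, 64 controls were left out. Of the other 22746, 13513 name 1 gene, 503 several, and 8730 are unnamed here, by the platform annotation supplied, updated through Entrez identifiers to RefSeq (13436 matched). The probe set with the highest mean stood for a gene with several.

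A mean per genotype was fitted to the 9 arrays with limma 3.58.1 in R 4.3.3 (lmFit, contrasts.fit, eBayes), two-sided, with Benjamini-Hochberg adjustment over the 22746 probe sets and calls at an adjusted p under 0.05. The fit was tested on simulated data. P-values set a difference against the spread between pools of the same genotype. That spread is estimated jointly over the 3 genotypes, with information from all probe sets through eBayes. The number of arrays limits the precision. No 2 arrays held identical values.

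The members, lists and rules were chosen with earlier results of these data known. The genes named are the 5, their neighbours past the test, the most similar profiles, list members and probe sets near the limits; AT1G65370's surroundings, UCL1 and the other adjacent genes were named after their values were seen. Deviations from group means of same-numbered arrays correlated at 0.41, 0.21 and 0.17 in shl-2 and wild type, at 0.27, 0.46 and -0.11 in ebs and wild type, and at 0.23, 0.16 and -0.29 in ebs and shl-2; numbers were taken to pair arrays where the 3 values exceeded 0.1, a hint from the data and not from the labels. Alternatives were a replicate block, median centring, repeated quantile normalization, a filter on dim probe sets, a variance trend, fits of the compared groups, a signal floor and leaving out each array. The shares of means counted as near-silent were varied after the data were seen.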

Additional observations from a re-analysis of the deposited data

Results flagged for a closer look

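For 2 of the 50 neighbours, the effects of the ebs and shl-2 mutations, each set against wild type, differed in a direct test. AT1G03820 was higher in ebs than in shl-2 by 1.00 on the log2 scale (limma adjusted p = 0.0302), with 3 of 3 ebs arrays above the shl-2 arrays. AT3G18280 was higher in ebs than in shl-2 by 0.57 (limma adjusted p = 0.0484), likewise in 3 of 3 ebs arrays. Of all probe sets 0.769% were called in ebs against shl-2, and 7.13% had their ebs arrays above the shl-2 arrays without overlap. The calls were lost in 5 of 9 fits with 1 array left out for AT1G03820 and in 9 of 9 for AT3G18280, and for both when only the ebs and shl-2 arrays were fitted (limma adjusted p = 0.1 each). Over the fits with 1 array left out the values ran from 0.82 to 1.20 for AT1G03820 and from 0.48 to 0.64 for AT3G18280.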

How the results depend on the processing

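Differences of the 5 genes in ebs kept their sign under each alternative tried. The genes were chosen for this rise and their ebs arrays lay above the other 6. These alternatives could hardly reverse a sign, so nothing is read from this. With 1 array left out the differences ran from 0.96 to 3.06 against wild type and from 0.95 to 2.98 against shl-2. The floor on dim values moved 5 of 5 by more than 1 SD in both comparisons. The count of near-silent probe sets raised in ebs alone was 21, the 5 genes included, when the lowest 50% of means counted as near-silent. It was 4 to 8 with 1 array left out, and 8 without ebs array 1 or ebs array 2, with 4 of the 5 genes among them in either case. Fitting the compared groups alone gave 112 calls over all probe sets in ebs against shl-2 in place of 175, 1 and 0 neighbours in ebs against wild type and against shl-2, and 15 dim probe sets in ebs against wild type. Replicate numbers paired the arrays by the rule used in shl-2 against wild type and not in the 2 ebs comparisons. With the replicate number as a block, calls were 898 in ebs against wild type, 248 in ebs against shl-2 and 1402 in shl-2 against wild type. The block left 3 neighbours called in ebs against wild type and 1 in ebs against shl-2, and AT3G18280 was in neither set (limma adjusted p = 0.0649 and 0.0736). With the dimmest 30% of probe sets left out, 3 of the dim class were still tested and 1 was called, namely AT1G65760, which was chosen for its rise in ebs and passed the filter through its ebs arrays. With 1 array left out, calls ran from 264 to 838 in ebs against wild type (726 with all arrays), from 64 to 190 in ebs against shl-2 and from 677 to 1229 in shl-2 against wild type (1235). Neighbours called ran from 0 to 2 against wild type and 0 to 1 against shl-2, the 1 measured gene of the F-box list gave 0 to 0, and dim probe sets called ran from 12 to 28. The lowest counts came without ebs array 1 for both ebs comparisons (264 and 64) and without wild type array 2 for shl-2 against wild type. Calls in ebs against wild type also fell by over 1.5 times without wild type arrays 2 or 3 or ebs array 3 (265, 416 and 306). The cause was not tested.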
